A study of Mus musculus with 15 samples.

Results

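The aldosterone-sensitive sodium channel pathway was followed through 10 genes in kidney RNA of 15 mice. The genes were the members named for the pathway, taken wherever a probe set of the array was annotated to that gene alone, and all 10 were measured, with 11 probe sets, among 22180 genes and 23521 probe sets tested. The kidneys came from 8 Grhl1-/- mice, called knockout here, and 7 Grhl1+/+ mice, called wild type, and every animal was about 6 months old. Grhl1 is a gene for a transcription factor of the grainyhead family, which acts in epithelia. The labels give no sex, strain, litter or breeding scheme, and no statement of which part of Grhl1 was deleted. RNA was made from whole kidney, so a transcript of the collecting duct is measured among those of all other cell types, and fewer cells of a type cannot be told apart from less RNA per cell. Values are log2 summaries per probe set, and differences are knockout minus wild type with the standard error (SE) of the fit.

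Sodium is reclaimed at the end of the nephron by principal cells, which admit it through the epithelial sodium channel, built from the subunits encoded by Scnn1a, Scnn1b and Scnn1g. Aldosterone acts on these cells through the mineralocorticoid receptor, encoded by Nr3c2, and the enzyme encoded by Hsd11b2 inactivates glucocorticoids that would otherwise occupy that receptor. The hormone induces the kinase Sgk1, which phosphorylates the ubiquitin ligase Nedd4l and so slows the removal of the channel from the membrane. Prss8 encodes prostasin, a serine protease that activates the channel, Fxyd4 encodes a regulator of the sodium pump, and Kcnj1 encodes ROMK, the channel through which potassium is secreted.

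The Sgk1 window is shown because Sgk1 had the largest genotype difference of the 10 genes and is a textbook target of steroid receptors, and the Kcnj1 window because it was the other member in which the single element of that palindrome was found. RefSeq starts on the build GRCm38.p6 were listed for 6 of the 10 genes (Scnn1b, Scnn1g, Nr3c2, Sgk1, Fxyd4 and Kcnj1), with 11 windows of 250 bases upstream of a start. Most of the 11 windows belonged to Sgk1, and each other gene had 1. The palindrome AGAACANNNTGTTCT, searched on both strands, lay in 1 of these windows, upstream of 1 of the Sgk1 starts, at 189 to 175 bases before it. It occurred in 3 of all 32851 windows of that length, 0.00913%. Its single element AGAACA, which also matches within the palindrome, occurred in 16.1% of all windows, and among the members in 3 windows of Sgk1 and in the window of Kcnj1. The grainyhead palindrome AACCGGTT was in none of the 11 windows and in 0.116% of all, and with 1 open base, as AACCNGTT, it was again in none of the 11 and in 1.79% of all. These are matches of letters in a short window and describe no binding. The sequences below run 5′ to 3′ on the plus strand of the Sgk1 window at chr10:21993640-21993889 and of the Kcnj1 window at chr9:32393735-32393984. Capitals mark the palindrome in Sgk1 and the single elements in Kcnj1.
Sgk1: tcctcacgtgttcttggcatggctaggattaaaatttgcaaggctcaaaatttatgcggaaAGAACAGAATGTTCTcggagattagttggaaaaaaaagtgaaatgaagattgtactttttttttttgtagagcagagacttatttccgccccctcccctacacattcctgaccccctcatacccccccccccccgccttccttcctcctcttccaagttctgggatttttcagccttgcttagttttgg
Kcnj1: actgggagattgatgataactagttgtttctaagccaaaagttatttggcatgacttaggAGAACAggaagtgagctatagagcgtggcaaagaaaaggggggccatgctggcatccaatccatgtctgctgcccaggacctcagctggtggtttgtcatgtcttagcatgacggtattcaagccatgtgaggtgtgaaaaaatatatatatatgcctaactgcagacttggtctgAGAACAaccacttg

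The arrays were alike in scale, with medians from 5.51 to 5.59. The targeted gene read 4.40 to 4.92 in knockout kidneys, against 4.96 to 5.25 in wild-type kidneys, without overlap (difference -0.38, SE 0.07, limma adjusted p = 0.113). Its probe set was dim in both genotypes, with 28.6% of all probe sets below it, so the difference does not measure how much transcript was lost. The tissue label was borne out by the proximal tubule list, whose mean lay between 12.6 and 12.7 in both genotypes. Samples differed in other tissue: 1 knockout and 2 wild-type kidneys held liver transcripts, and 4 knockout and 2 wild-type kidneys held adrenal cortex transcripts. Y-linked transcripts were low in 3 knockout and 2 wild-type kidneys (mean of 3 genes 3.96 to 4.26) and present in the other 5 knockout and 5 wild-type kidneys (8.37 to 8.68). The adrenal cortex list mean ran from 4.99 to 9.14 in knockout and from 4.85 to 8.04 in wild-type samples, and the liver list mean from 7.13 to 9.28 in knockout and from 7.35 to 10.96 in wild-type samples. The immune cell list mean ran from 7.06 to 8.32 in knockout and from 7.46 to 8.09 in wild-type kidneys, with 8 of 8 genes averaging lower in knockout kidneys, a median of -0.14 and none past the threshold. The part of these tissues and cells in the genotype differences was not tested, beyond the values given below without the samples concerned. Results that move with this content are given beside it.

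None of the 10 genes passed the threshold between genotypes, an adjusted p under 0.05 in limma fitted over all probe sets, and none had an unadjusted p under 0.05. Over all probe sets, 0.0128% passed (0.00425% higher and 0.0085% lower in knockout kidneys) and 5.55% had an unadjusted p under 0.05. In the exact rank-sum test 0 of the 10 had an unadjusted p under 0.05. The smallest adjusted p of that test over all probe sets was 0.252, so no gene passed it. Of the 10, 7 averaged higher and 3 lower in knockout kidneys. The median difference of the 10 genes was 0.046, beside 0.0083 over all probe sets, and the genotypes overlapped for every one of them, while 0.123% of all probe sets separated the genotypes.

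The means of the channel subunit genes differed between genotypes by 0.054 at most, less than the spread between kidneys. Scnn1a, the subunit required for channel assembly, read 9.93, 10.11 and 10.44 (lowest, median and highest) in knockout kidneys and 9.94, 9.99 and 10.35 in wild-type kidneys. Its difference was 0.046 (SE 0.08, limma adjusted p = 0.997), with a 95% interval from -0.13 to 0.22. The ranges of the genotypes nearly coincided.

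Scnn1b read 9.24, 9.40 and 9.89 in knockout kidneys and 9.32, 9.40 and 9.87 in wild-type kidneys, so its medians were equal at this precision. The difference was -0.00035 (SE 0.12), with a 95% interval from -0.26 to 0.26 and an exact permutation p of 0.998. Each genotype held a low and a high set of kidneys for this gene, with no value between 9.46 and 9.69.

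Scnn1g read 9.57, 9.77 and 10.18 in knockout kidneys and 9.63, 9.77 and 9.91 in wild-type kidneys. The lowest and the highest kidney were both knockouts, and the spread was 0.23 (SD, n = 8) in knockout against 0.09 (SD, n = 7) in wild-type kidneys. The difference of the means was 0.054 (SE 0.09, limma adjusted p = 0.997, 95% interval -0.13 to 0.24).

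**Figure D1:**
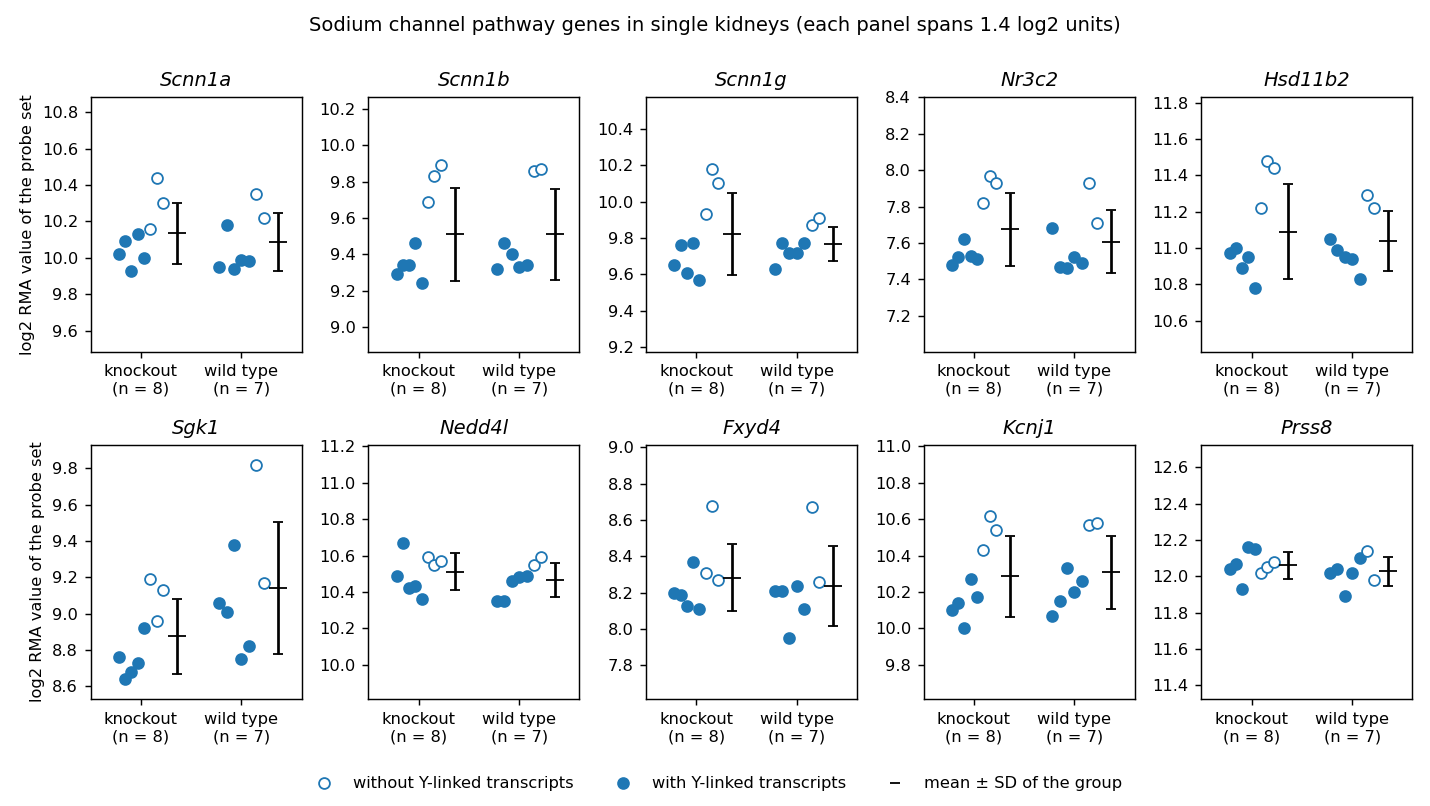
Log2 values of the 10 pathway genes in single kidneys (vertical axes, each spanning 1.4 log2 units), knockout (n = 8) left of wild type (n = 7), with black bars for the mean ± SD and open circles for kidneys without Y-linked transcripts. The genotypes overlap in every panel, and the open circles lie above all filled ones for Scnn1b, Scnn1g, Nr3c2, Hsd11b2 and Kcnj1.

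Nr3c2 was read by a pair of probe sets. The brighter of them, which stands for the receptor gene, read 7.48, 7.58 and 7.97 in knockout kidneys and 7.46, 7.52 and 7.93 in wild-type kidneys, a difference of 0.066 (SE 0.09, limma adjusted p = 0.997). The dimmer probe set, with 11.3% of all probe sets below it, ranged from 3.46 to 3.91 in knockout and from 3.53 to 3.78 in wild-type kidneys. Its genotypes overlapped too, with a difference of -0.0065.

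Hsd11b2, whose product guards the receptor, read 10.78, 10.98 and 11.48 in knockout kidneys and 10.83, 10.99 and 11.29 in wild-type kidneys. The difference was 0.052 (SE 0.11, limma adjusted p = 0.997), and its 95% interval from -0.17 to 0.28 corresponds to 0.886-fold to 1.21-fold. Of the members other than Sgk1, this was the interval that reached highest.

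Sgk1, the hormone-induced kinase, had the largest difference of the 10 genes. It read 8.64, 8.84 and 9.19 in knockout kidneys and 8.75, 9.06 and 9.82 in wild-type kidneys, and 6 of 8 knockout kidneys lay below the wild-type median. The means were 8.88 ± 0.21 (SD, n = 8) in knockout and 9.14 ± 0.36 (SD, n = 7) in wild-type kidneys. The difference of -0.27 (SE 0.14) or 1.20-fold lower missed the threshold (limma adjusted p = 0.937), with a 95% interval from -0.56 to 0.03 and an exact permutation p of 0.0939. The highest value belonged to wild-type replicate 6, and without that kidney the difference was -0.15.

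Sgk1 also varied with Y-linked content, which was low in 3 of 8 knockout and 2 of 7 wild-type kidneys. Among kidneys with Y-linked transcripts it read 8.76, 8.64, 8.68, 8.73 and 8.92 in knockout replicates 8 to 12, against 9.06, 9.01, 9.38, 8.75 and 8.82 in wild-type replicates 1 to 5. Among those without, it read 9.19, 8.96 and 9.13 in knockout replicates 13 to 15, against 9.82 and 9.17 in wild-type replicates 6 and 7. The difference was -0.26 within the kidneys with Y-linked transcripts and -0.40 within those without. With the mean of the Y-linked genes as covariate it was -0.30 (95% interval -0.51 to -0.08), at an unadjusted p of 0.0108 and a limma adjusted p of 0.393, where 8.71% of all probe sets had an unadjusted p under 0.05 (3.31% lower in knockout kidneys) and 0.0595% passed. Without the kidneys that held liver transcripts the difference was -0.19, and without those that held adrenal cortex transcripts -0.25. The urothelium list had 7 of 9 measured genes lower on average in knockout kidneys with a median of -0.084, and its mean ran from 6.89 to 7.40 in knockout and from 7.03 to 7.61 in wild-type kidneys. Its genes with the smallest p were Psca (-0.34, limma adjusted p = 0.823) and the uroplakin gene Upk1a (-0.34, limma adjusted p = 0.889). The intercalated cell list had 6 of 10 genes lower and 4 higher, with a median of -0.070. Its genes with the smallest p were the water channel gene Aqp6 at -0.31 (limma adjusted p = 0.963) and the anion exchanger gene Slc4a1 at -0.24 (limma adjusted p = 0.973). Other lists went the other way. The principal cell list had 6 of 9 measured genes higher in knockout kidneys, with a median of 0.016. The connecting and distal convoluted tubule list had 7 of 8 higher, with a median of 0.078. The part of these cells in the Sgk1 difference was not tested.

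Nedd4l, the ubiquitin ligase that Sgk1 acts on, read 10.36, 10.52 and 10.67 in knockout kidneys and 10.35, 10.48 and 10.59 in wild-type kidneys. The difference was 0.046 (SE 0.05, limma adjusted p = 0.997, 95% interval -0.07 to 0.16). Prss8, the activating protease, read 11.93, 12.06 and 12.16 in knockout kidneys and 11.89, 12.02 and 12.14 in wild-type kidneys, a difference of 0.033 (SE 0.05, limma adjusted p = 0.997). These were the steadiest genes of the pathway: the SD within genotypes was 0.0985 for Nedd4l and 0.0763 for Prss8, and 18.8% and 9.23% of all probe sets had a smaller one. Sgk1 was the least steady, with an SD of 0.291 that exceeded 91.8% of all probe sets.

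Fxyd4, the regulator of the sodium pump, read 8.11, 8.24 and 8.68 in knockout kidneys and 7.95, 8.21 and 8.67 in wild-type kidneys, a difference of 0.048 (SE 0.10, limma adjusted p = 0.997). Kcnj1, the potassium channel gene, read 9.997, 10.22 and 10.62 in knockout kidneys and 10.07, 10.26 and 10.58 in wild-type kidneys, a difference of -0.023 (SE 0.10, limma adjusted p = 0.997). Both genes spread over more than 0.5 log2 units inside each genotype. Apart from Sgk1, the 95% intervals of the 9 other genes lay between -0.26 and 0.28, or 0.836-fold and 1.21-fold, so larger genotype differences in these transcripts are outside them.

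**Figure D2:**
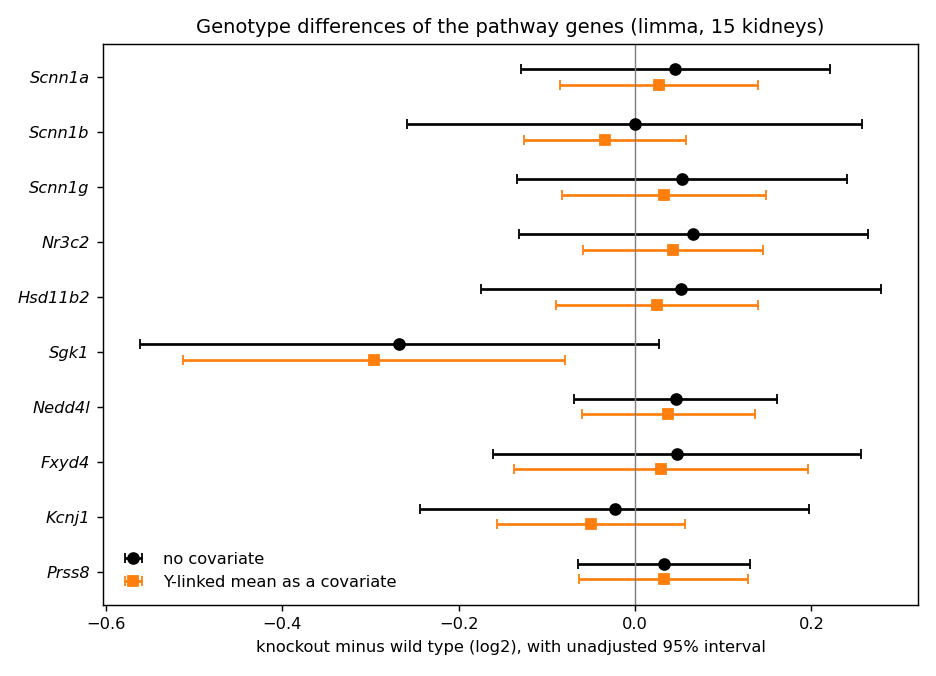
Knockout minus wild type (horizontal axis, log2) for each pathway gene from limma over 15 kidneys, with unadjusted 95% intervals, fitted without a covariate (black circles) and with the mean of the Y-linked genes as covariate (orange squares). The intervals cross 0 for all genes without the covariate, and with it for all but Sgk1, at -0.30.

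Inside each genotype, the values of most of the genes were divided by the presence of Y-linked transcripts. Since sex is not among the labels and these sets of kidneys were formed from a measured value, they are described without a test. In the 5 kidneys without Y-linked transcripts, 5 of the 10 genes lay above all 10 kidneys with them, and none lay below. Over all probe sets, 11.5% separated these sets of kidneys, 6.82% higher and 4.69% lower in the kidneys without Y-linked transcripts. All 10 genes had the higher mean in the kidneys without Y-linked transcripts, with a median difference of 0.32, beside -0.0089 over all probe sets.

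Scnn1b showed the widest gap. It read 9.69, 9.83 and 9.89 in knockout replicates 13 to 15 and 9.86 and 9.87 in wild-type replicates 6 and 7, all without Y-linked transcripts, against 9.24 to 9.46 in the 10 kidneys with them. That is 1.39-fold higher on average, by 0.47 among knockout and by 0.50 among wild-type kidneys. The beta subunit gene was thus split alike in both genotypes.

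Scnn1g ranged from 9.87 to 10.18 without and from 9.57 to 9.77 with Y-linked transcripts, and the gap was 0.40 among knockout and 0.16 among wild-type kidneys. Scnn1a, the third subunit gene, overlapped, at 10.16 to 10.44 without and 9.93 to 10.18 with Y-linked transcripts, where wild-type replicate 2 was the kidney that reached into the upper range. On average the alpha subunit gene was 1.21-fold and the gamma subunit gene 1.23-fold higher in the kidneys without Y-linked transcripts.

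The receptor and its guarding enzyme were split in the same direction. Nr3c2 ranged from 7.71 to 7.97 without and from 7.46 to 7.68 with Y-linked transcripts, 1.27-fold higher on average. Hsd11b2 ranged from 11.22 to 11.48 without and from 10.78 to 11.05 with Y-linked transcripts, 1.32-fold higher on average. The dimmer probe set of Nr3c2 did not separate them, at 3.53 to 3.74 and 3.46 to 3.91.

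Kcnj1 ranged from 10.43 to 10.62 without and from 9.997 to 10.33 with Y-linked transcripts, 1.30-fold higher on average, by 0.40 among knockout and 0.38 among wild-type kidneys. Sgk1 (8.96 to 9.82 without, 8.64 to 9.38 with), Fxyd4 (8.26 to 8.68 without, 7.95 to 8.37 with) and Nedd4l (10.55 to 10.59 without, 10.35 to 10.67 with) overlapped. Prss8 differed by 0.013 and was the member whose direction was not the same in both genotypes, at -0.017 among knockout and 0.044 among wild-type kidneys. Prostasin is also made in the proximal tubule, outside the aldosterone-sensitive segments, and the part of this in the Prss8 values was not tested.

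**Figure D3:**
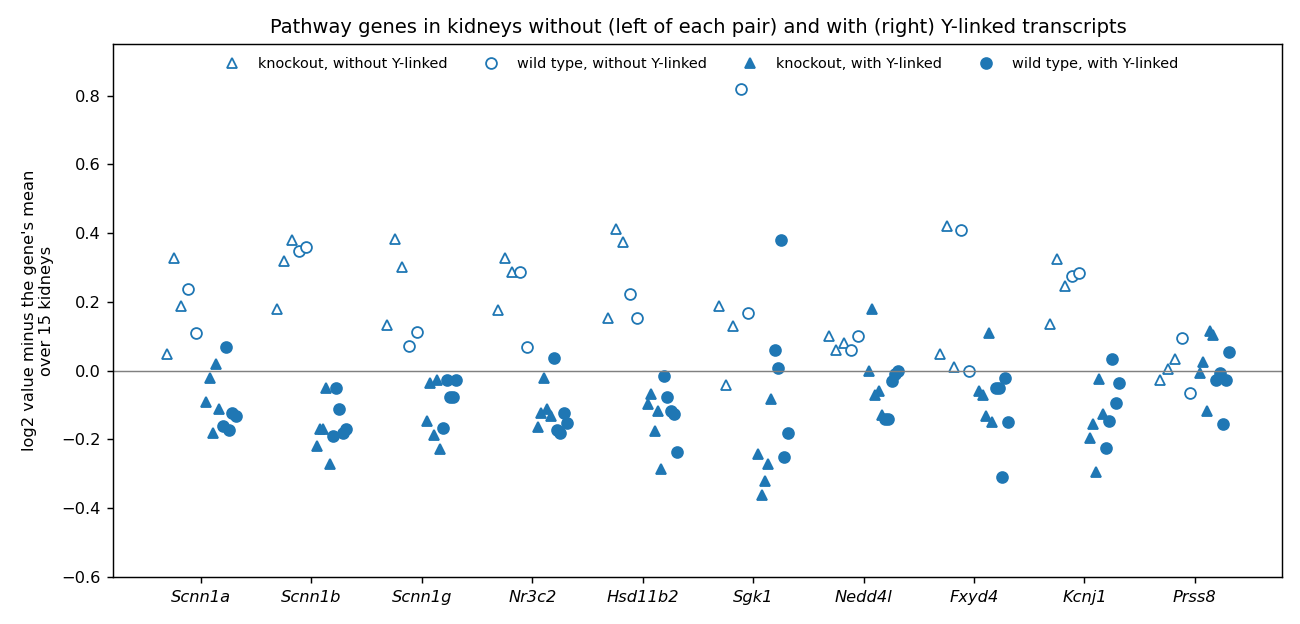
Log2 values of each pathway gene minus its mean over 15 kidneys (vertical axis), with the 5 kidneys without Y-linked transcripts (open) left of the 10 kidneys with them (filled), triangles for knockout and circles for wild type. Open and filled points do not overlap for Scnn1b, Scnn1g, Nr3c2, Hsd11b2 and Kcnj1, and for Prss8 they share most of their range.

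Markers of other nephron segments and cell types moved with the same split. The principal cell list without the members, which holds the water channel genes Aqp2, Aqp3 and Aqp4 and the transcription factor gene Gata3, had 9 of 9 measured genes higher on average in kidneys without Y-linked transcripts, with a median of 0.31 and list means of 8.64 to 8.88 without and 8.25 to 8.61 with Y-linked transcripts. Of its genes 4 lay higher without overlap, as did 6.82% of all probe sets. Aqp4 was among the 4, with 9.05 to 9.78 without and 8.14 to 8.90 with Y-linked transcripts. The ranges of Aqp2 overlapped (9.65 to 10.40 without and 9.69 to 10.18 with). The intercalated cell list had 10 of 10 genes higher with a median of 0.42, and the thick ascending limb list 7 of 8 with a median of 0.29. The podocyte list had 4 of 4 genes higher with a median of 0.32, the immune cell list 8 of 8 with a median of 0.39, and the endothelial list 7 of 7 with a median of 0.18. Proximal tubule genes were split 5 of 10, with a median of 0.0058. Of these 10 genes, 3 lay higher and 3 lower without overlap, beside 6.82% and 4.69% of all probe sets. The part of cell content in the members' split was not tested.

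The kidneys with liver or adrenal cortex transcripts fell on both sides of this split. Liver list means ranged from 7.13 to 10.96 without and from 7.35 to 9.28 with Y-linked transcripts, and adrenal cortex means from 4.85 to 9.14 without and from 4.94 to 8.34 with. Removing those kidneys cannot bring about an overlap, so it is no test of the part of these tissues in the split. Cyp11b2, which encodes aldosterone synthase of the adrenal cortex, ranged from 4.54 to 6.84 in knockout and from 4.19 to 6.77 in wild-type samples. The part of adrenal tissue in these values was not tested, and they say nothing of hormone in blood.

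Among the 10 kidneys with Y-linked transcripts, where the split does not enter, no pair of members passed a test of correlation. Of 45 pairs, 26 had a positive Pearson correlation, with a median of 0.14, and 0 passed after adjustment over the 45 pairs in the permutation test, with 2 at an unadjusted p under 0.05. Scnn1b and Scnn1g came closest, at r = 0.74 (permutation p = 0.0154, adjusted p = 0.454) and rho = 0.74 (permutation p = 0.0174, adjusted p = 0.784), and r was 0.64 without the pair of kidneys farthest from the median of Scnn1b. Nr3c2 and Kcnj1 were opposed, at r = -0.65 (permutation p = 0.0410, adjusted p = 0.454), and at -0.14 without the pair of kidneys farthest from the median of Nr3c2, on which the relation rests. The 5 kidneys without Y-linked transcripts are too few for a correlation.

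The transcripts most like each member over the 15 kidneys were found by the correlation of deviations from the genotype means among 11383 genes above the median level. Kcnj1 was most like Nbeal2 (r = 0.99, and 0.83 within the 10 kidneys with Y-linked transcripts), Scnn1b like Ugt2b34 (0.98 and 0.78), Scnn1g like Pgm2 (0.96 and 0.85) and Hsd11b2 like Emp1 (0.97 and 0.67). For Nr3c2 the likeness to Tle2 was 0.96 over all kidneys and 0.34 within the 10, and for Sgk1 the likeness to Adamts12 was 0.91 and 0.32. Scnn1a was most like Tlr3 (0.96 and 0.77), with Atp4a next (0.95 and 0.34). Nedd4l reached 0.85 with Pcp4 (0.81 within the 10), Fxyd4 0.90 with Chst14 (0.89) and Prss8 0.88 with Thap11 (0.91). The points share the split by Y-linked content, and the values over 15 kidneys are descriptions that include it. Each gene named was picked for a top r among 11383 candidates, over kidneys that include the 10. High values arise from such a choice alone, so those within the 10 are no independent check.

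The wider pathway was followed in 7 lists of genes, chosen for their role with earlier results of these data known. Among these, 62 of 68 genes were measured, 0 passed in limma in either direction, and 3 had an unadjusted p under 0.05, a share of 4.84% beside the 5.55% of all probe sets. Of the 62 genes, 39 averaged higher and 23 lower in knockout kidneys, with a median difference of 0.017.

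Transcripts that aldosterone or glucocorticoid raises in kidney or collecting duct cells had, of these 7 lists, the largest share of genes lower in knockout kidneys, 7 of 9 measured, with a median of -0.075, and none passed. Tsc22d3, which encodes the glucocorticoid-induced leucine zipper protein, averaged 7.07 ± 0.25 in knockout (SD, n = 8) and 7.36 ± 0.22 in wild-type kidneys (SD, n = 7), a difference of -0.30 (SE 0.12, limma adjusted p = 0.801). The clock gene Per1 averaged 8.46 ± 0.39 in knockout and 8.79 ± 0.51 in wild-type kidneys, a difference of -0.33 (SE 0.21, limma adjusted p = 0.973). Ndrg2 ranged from 11.31 to 11.46 in knockout and from 11.40 to 11.61 in wild-type kidneys, a difference of -0.11 (SE 0.04, limma adjusted p = 0.766). The 2 other genes of the list, Edn1 at 0.13 and Cnksr3 at 0.035, averaged higher in knockout kidneys. Wild-type replicate 6, highest for Sgk1, was also highest for Per1 at 9.45, but not for Tsc22d3 at 7.32 or Ndrg2 at 11.53. Without Y-linked transcripts, Tsc22d3 averaged 0.35 lower than with them, where Sgk1 averaged 0.38 higher. Some genes of this list lay lower in kidneys without Y-linked transcripts: Fkbp5, whose product is a chaperone of steroid receptors, read 6.45 to 6.89 without and 7.72 to 8.24 with them. The deubiquitinase gene Usp2 read 9.55 to 10.11 without and 10.28 to 10.70 with them.

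**Figure D4:**
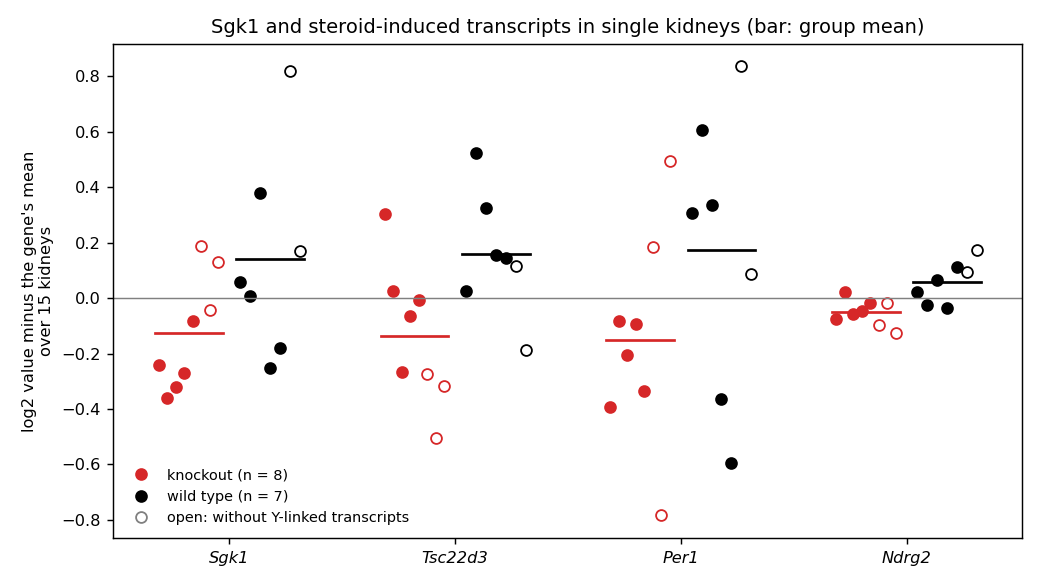
Log2 values of Sgk1 and of the steroid-induced transcripts Tsc22d3, Per1 and Ndrg2, each minus its mean over 15 kidneys (vertical axis), knockout (red, n = 8) left of wild type (black, n = 7), with bars for group means and open circles for kidneys without Y-linked transcripts. The knockout mean lies lower for each gene, by 0.27, 0.30, 0.33 and 0.11, and the groups overlap. The transcripts beside Sgk1 are the 3 of their list with the smallest p, and 2 of its 9 measured genes averaged higher in knockout kidneys.

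Receptor partners were split 5 and 5 with a median of -0.019, among them the glucocorticoid receptor gene Nr3c1 at -0.045 and the chaperone gene Hsp90aa1 at -0.26 (SE 0.16, limma adjusted p = 0.969). The kinase and ubiquitin machinery was split 7 and 7 with a median of -0.0011, with Sgk2, a relative of Sgk1, at 0.10 (SE 0.08, limma adjusted p = 0.979). Channel-activating proteases and inhibitors had 8 of 10 genes higher with a median of 0.066, with the proteases Tmprss4 at 0.085 and Tmprss2 at 0.084 and the urokinase gene Plau at 0.14, each at an adjusted p of 0.973 or more in limma. Potassium channels had 8 of 9 genes higher with a median of 0.056. Kcnj16, a basolateral potassium channel subunit, ranged from 11.77 to 11.88 in knockout and from 11.69 to 11.79 in wild-type kidneys, a difference of 0.078 (SE 0.03, limma adjusted p = 0.894), and Kcnmb4, a subunit of the large-conductance channel, differed by 0.20 (SE 0.10, limma adjusted p = 0.923). WNK kinases and sodium chloride cotransport had 6 of 8 genes higher with a median of 0.046, and the sodium pump 3 of 4 with a median of 0.023.

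The WNK and cotransport list also separated the kidneys by Y-linked content. Of its 8 genes, 6 lay higher and 1 lower without overlap in kidneys without Y-linked transcripts, where 6.82% of all probe sets lay higher and 4.69% lower. Slc12a3, the thiazide-sensitive cotransporter gene, read 12.63 to 12.81 without and 12.24 to 12.43 with Y-linked transcripts, and Klhl3, whose product directs WNK kinases to degradation, 8.87 to 9.10 without and 8.34 to 8.58 with. Cul3, the ubiquitin ligase scaffold that Klhl3 works with, was the lower one, at 10.76 to 10.88 without and 10.95 to 11.07 with. In the 7 lists together, 16 of 62 genes lay higher and 10 lower without overlap, beside 6.82% and 4.69% of all probe sets.

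**Figure D5:**
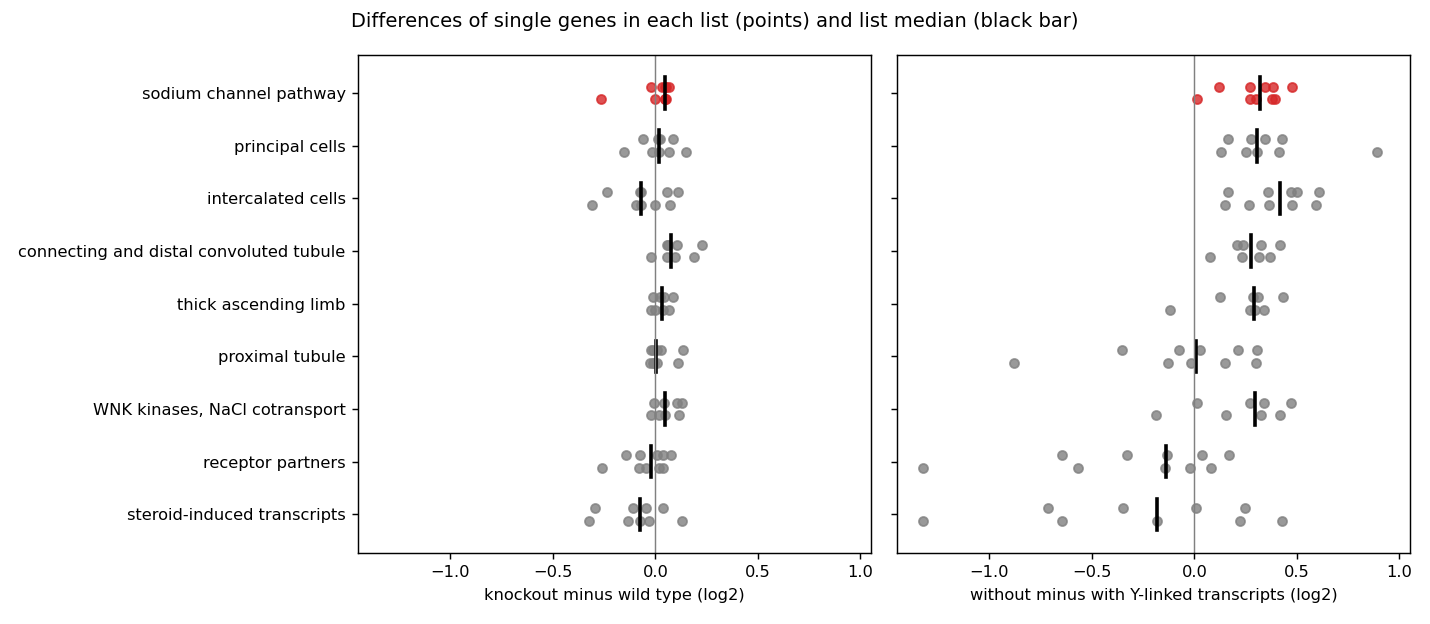
Differences of single genes (points, log2) and list medians (black bars) for the pathway genes (red) and other lists (grey), knockout minus wild type on the left and without minus with Y-linked transcripts on the right. On the left the medians of the 9 lists drawn lie between -0.075 and 0.078. On the right the pathway genes, with a median of 0.32, lie beside the lists of distal nephron segments, while the proximal tubule list has a median of 0.0058. Of the proximal tubule genes, 3 lay higher and 3 lower without overlap. Among lists not drawn, the median was 0.32 for podocytes, 0.39 for immune cells and 0.0028 for potassium channels.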

How the data were processed

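The authors deposited log2 values for each probe set from RMA, which subtracts background, equalises the arrays and fits a set's probes together, per the submitters' processing notes. RMA removes a shift of most transcripts in 1 direction and compresses dim probe sets. Of 41345 probe sets, 23521 had 1 gene symbol by the platform annotation and were tested without a filter, 1814 had several symbols and 16010 were unnamed. Symbols were updated by Entrez ID for 23328. Genotypes came from the sample titles, with 1 array per mouse, so that p-values set the genotype difference against the spread between these mice. limma 3.58.1 (lmFit, eBayes) in R 4.3.3 was fitted to all 15 arrays without a covariate, two-sided, with Benjamini-Hochberg adjustment over all probe sets. It was tested on simulated data with independent noise. These held no split by Y-linked content and no liver or adrenal transcripts, so that test does not cover them. The exact permutation test used all 6435 splits, and correlations 100000 resamples. Where a gene had several probe sets, the brightest stood for it. Of each other list, the genes named are up to 3 with the smallest p. A sample held liver or adrenal cortex transcripts where the list mean exceeded the median of samples by 1 log2 unit, and Y-linked transcripts where it lay above the midpoint of the range. Aqp2, Gata3, Nr3c1, Fkbp5, Slc12a3, Cul3, Cyp11b2, Edn1 and Cnksr3 were chosen after their values were seen. The members and lists were chosen with earlier results of these data known. Promoters came from RefSeq (GRCm38.p6). Correlations between members are given within the 10 kidneys with Y-linked transcripts, because the kidneys fall into separate sets; the likeness of other genes to a member is given over all 15 and within those 10.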

Additional observations from a re-analysis of the deposited data

Results flagged for a closer look

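Among 20 groups of kidneys checked (10 genes in each genotype), 1 sample stood apart by Dixon's criterion, where chance gives about 1 in 20. For Fxyd4, knockout replicate 14 read 8.68, and the nearest knockout kidney read 8.37. Without it the genotype difference of Fxyd4 was -0.0095 in place of 0.048.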

How the results depend on the processing

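In each alternative setting fitted with limma, 0 of the 10 genes passed and at most 1 had an unadjusted p under 0.05. Over all probe sets 3 passed, and 14 with the Y-linked genes' mean as covariate, 7 with all 41345 probe sets, 1 in the kidneys without Y-linked transcripts, 2 to 6 when 1 kidney was left out (6 without knockout replicate 8), 0 above the median level (771 at an unadjusted p under 0.05) and 0 in the exact rank-sum test (1199 at an unadjusted p under 0.05). The smallest adjusted p of the rank-sum test was 0.252. Sgk1 (-0.33 to -0.15 leaving out 1 kidney, -0.40 to -0.19 otherwise), Scnn1a and Nr3c2 kept their direction in all 30, but leaving out 1 kidney Scnn1a ran from 0.0016 (without knockout replicate 14) to 0.089 (without wild-type replicate 6) and Nr3c2 from 0.023 to 0.12 (without the same kidneys). Scnn1g ran from 0.0028 with knockout replicate 14 removed to 0.089 with knockout replicate 12 removed, Nedd4l from 0.023 to 0.068 and Prss8 from 0.010 to 0.052. Scnn1b, at -0.00035, turned to 0.00050 with centred arrays, 0.0016 with repeated quantile normalization, 0.00060 as linear means, 0.059 with liver and adrenal covariates, 0.045 without the kidneys with adrenal and 0.074 without those with liver transcripts, and leaving out 1 kidney it ran from -0.055 to 0.060. Kcnj1 turned to 0.017, 0.016 and 0.076 in the last 3 of these settings, and ran from -0.072 to 0.022 leaving out 1 kidney. In the kidneys with Y-linked transcripts alone, Scnn1g was -0.049 and Hsd11b2 -0.034. In those without, Nedd4l was -0.00050, Fxyd4 -0.047 and Prss8 -0.0093. Leaving out 1 kidney, Hsd11b2 ran from -0.0033 to 0.097 and Fxyd4 from -0.0095 to 0.12. The cause of these turns was not tested. No paired analysis was possible because the genotypes share no replicate numbers. The number of arrays limits precision, and signal over background was not analysed here.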
